A study of Rattus norvegicus with 12 samples.

Results

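A set of 10 genes that mark fibroblasts or carry signals of platelet-derived growth factor (PDGF) were followed in the denervated rat bladder. They were the receptors Pdgfra and Pdgfrb, the ligands Pdgfa and Pdgfc, the proteins of activated fibroblasts Fap and Fndc1, the surface and matrix markers Thy1, Dpt and Pi16, and the transcription factor Tcf21. They were taken by symbol from the array's gene table. All 10 had 1 probe set each that carries that symbol alone, of 18166 genes measured. The denervated group was 6 whole urinary bladders of female Sprague Dawley rats of about 3 months, taken 10 days after surgery with bilateral freezing of ganglia, which the labels also call pelvicus freezing. The sham group was 6 bladders of rats of the same strain, sex and age that had surgery without freezing, and the labels used here do not give its time of harvest. Each bladder sample was read on 1 array, as log2 expression values. The labels do not state that every array is a separate animal, so the p-values measure the spread between these 12 samples.

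PDGFs are paired growth factor chains that bring together receptor tyrosine kinases on mesenchymal cells. The A and C chains act mainly through the alpha receptor and the B and D chains mainly through the beta receptor, and the C and D chains are secreted with a domain that proteases must remove. In the bladder the alpha receptor marks interstitial cells of the lamina propria and between muscle bundles, and the beta receptor marks pericytes and many fibroblasts. Fap, Pi16, Dpt, Thy1 and Tcf21 are used in many organs to tell fibroblast states apart.

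In the labels the tissue is given as over 95% smooth muscle. Smooth muscle genes such as Myh11 (12.63 in denervated and 13.14 in sham arrays, group means) were bright, but the urothelial gene Upk2 (11.87 in denervated and 12.63 in sham arrays) was also far above the median gene of every array. Array medians over all genes lay between 6.80 and 6.86. One denervated array, replicate 2, was unlike the rest of its group, with a score of -5.84 on the leading principal component (58.0% of the variance). The remaining denervated arrays scored 25.9 to 42.5 and the sham arrays -30.2 to -22.5. Results that rest on it are given with and without it. In these whole-organ samples, a change in the number of cells of a type and a change in RNA per cell cannot be told apart.

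Of the 10 genes, 5 were called higher after denervation, 1 was called lower and 4 were not called. A gene was called when its adjusted p in limma, corrected over all 18166 genes, was below 0.05. By the same rule 28.7% of all genes were called, 11.9% higher and 16.9% lower. Fndc1, Fap, Thy1 and Pdgfrb were each at least doubled, whereas Dpt rose by a small amount. Denervated and sham values were fully separate for 3 of the 10 (Pdgfrb, Fndc1 and Dpt, all upward) and for 13.3% of all genes, 5.76% upward and 7.59% downward. Tcf21 was the gene that fell, and Pdgfra, Pdgfa, Pdgfc and Pi16 did not pass the test. The median change over the 10 genes was 0.36 on the log2 scale, against -0.04 over all genes. Without denervated replicate 2 the number called higher was 6, because Pi16 then passed. Over all genes that fit called 2612 higher and 3661 lower, against 2153 and 3063 with every array. The larger counts without that array, here and in the lists below, are therefore not particular to these genes.

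**Figure D1:**
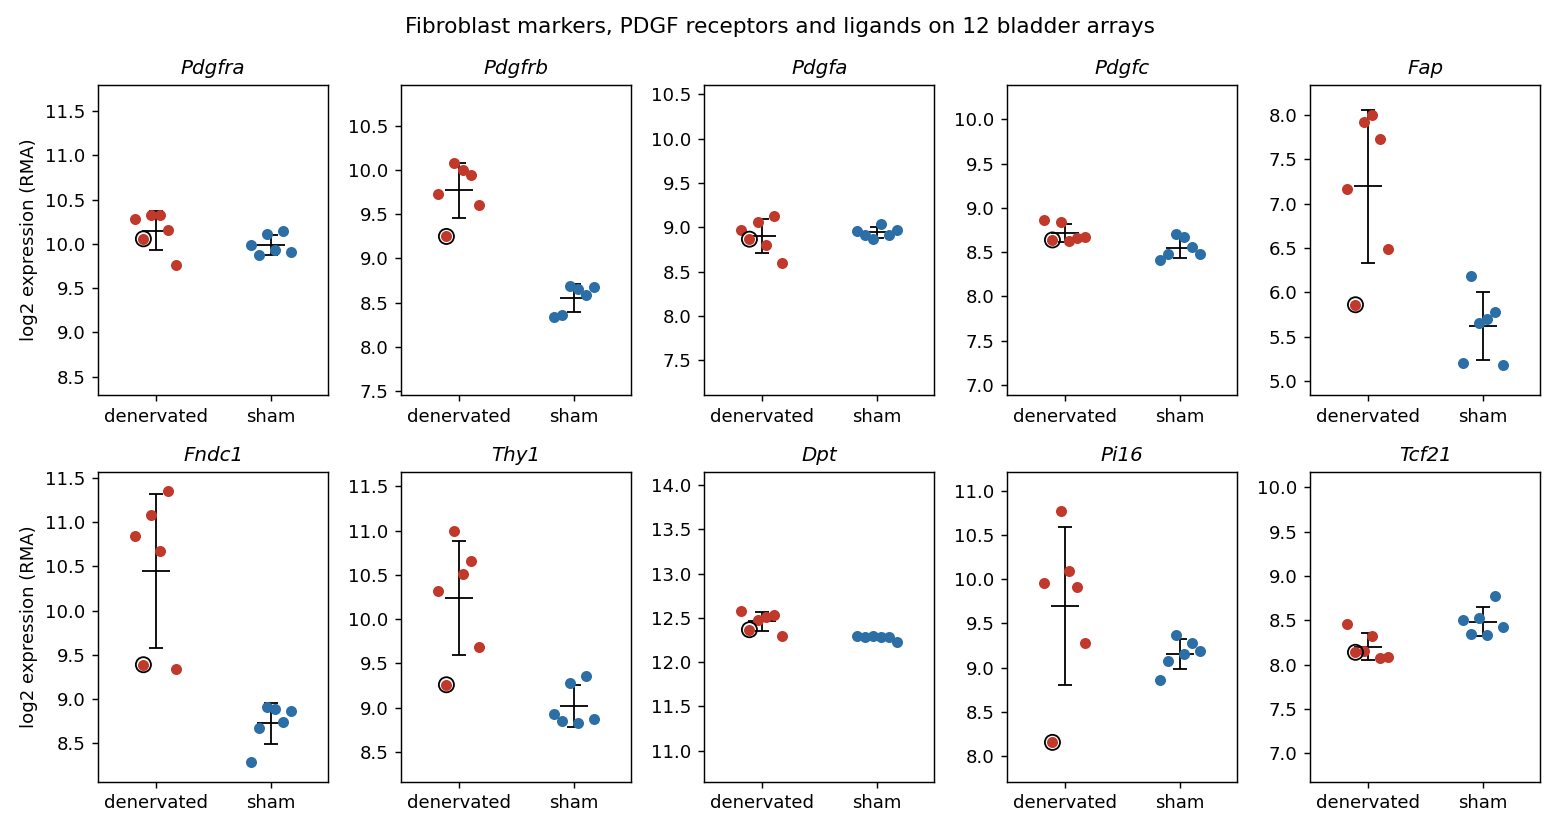
Log2 expression of each gene on the 6 denervated arrays (left, red) and the 6 sham arrays (right, blue), with the group mean and SD as black bars and denervated replicate 2 circled. Every panel spans the same number of log2 units. Pdgfrb and Fndc1 show no overlap between the groups, whereas Pdgfra and Pdgfa do.

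The PDGF receptors changed unequally. Pdgfrb, the beta receptor, lay at 9.25 (lowest), 9.84 (median) and 10.08 (highest) in denervated bladders, against 8.34, 8.62 and 8.69 in sham bladders. All 6 denervated values were above all 6 sham values. Its mean was 9.77 ± 0.31 in denervated and 8.55 ± 0.16 in sham arrays (SD, n = 6 each), a rise of 1.22 ± 0.13 (SE) or 2.32-fold (limma adjusted p = 8.57e-05). A larger absolute change was seen in 2.49% of genes. The call held in each of the 12 fits that left out 1 array, with rises of 1.15 to 1.32.

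Pdgfra, the alpha receptor, lay at 9.76, 10.22 and 10.33 in denervated bladders (lowest, median and highest) and at 9.87, 9.96 and 10.14 in sham bladders. In 4 denervated arrays it was above every sham value, and in denervated replicate 6 it was below every sham value. The difference was 0.16 ± 0.10 (SE, n = 6 per group, adjusted p = 0.247), with a 95% interval of -0.05 to 0.37. Without denervated replicate 6 it was 0.24 and was called (adjusted p = 0.0282). Within arrays the difference Pdgfra minus Pdgfrb was lower in denervated than in sham bladders by 1.06 log2 units (-1.06 ± 0.12, SE, two-sided exact permutation p = 0.0022, the smallest that 924 relabellings can give, and 0.0108 after adjustment over 5 pairs of genes compared in this way). In all 6 denervated arrays it was below all 6 sham arrays.

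Of 3 other receptors of the same structural class, 1 was called, against 28.7% of all genes. Csf1r, the receptor of colony-stimulating factor on macrophages, rose by 0.74 ± 0.06 (adjusted p = 2.78e-05), with 10.18 to 10.39 in denervated and 9.44 to 9.64 in sham arrays. Kit, the stem cell factor receptor of mast cells and interstitial cells, differed by 0.28 (adjusted p = 0.0519), and Flt3, a receptor of blood progenitors and dendritic cells, by 0.40 (adjusted p = 0.0869). Of these 3 receptors, 2 were called when denervated replicate 3 or 6 or sham replicate 1 or 2 was left out.

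The ligand genes Pdgfa and Pdgfc differed little. Pdgfa, which encodes the A chain, lay at 8.59, 8.92 and 9.12 in denervated bladders (lowest, median and highest), against 8.86, 8.94 and 9.04 in sham bladders. The denervated values spread on both sides of the sham values, with 2 above all and 2 below all of them. The difference was -0.04 ± 0.08 (SE, n = 6 per group, adjusted p = 0.770), with a 95% interval of -0.22 to 0.14.

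Pdgfc, which encodes the C chain, lay at 8.63, 8.67 and 8.86 in denervated bladders and at 8.41, 8.52 and 8.70 in sham bladders. Here 2 denervated values were above all sham values and the rest overlapped. Its difference of 0.17 ± 0.07 did not pass the test (adjusted p = 0.0898), though its own 95% interval, which is not adjusted for the number of genes, ran from 0.02 to 0.32. The difference Pdgfa minus Pdgfc was lower by 0.21 in denervated arrays (-0.21 ± 0.09, SE, exact permutation p = 0.0476, and 0.0794 after adjustment over the 5 pairs). It passed the adjusted test without denervated replicate 5 (-0.26, adjusted exact p = 0.0180) or sham replicate 3 (-0.25, adjusted exact p = 0.0325).

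Among 10 other PDGF ligands and extracellular partners, 8 were called higher and 0 lower, with a median change of 0.47. Pdgfb, the B chain, rose by 0.41 ± 0.10 (adjusted p = 0.00771). It lay at 6.82, 7.31 and 7.44 in denervated arrays (lowest, median and highest) and at 6.66, 6.85 and 6.96 in sham arrays, near the median gene. Pdgfd, the D chain, differed by 0.15 (adjusted p = 0.577). Plat, the tissue plasminogen activator that can release active PDGF-C, rose by 0.89 ± 0.15, and Plau, the urokinase that can process PDGF-D, differed by 0.32 (adjusted p = 0.0581). Furin, a protease that matures the A and B chains, rose by 0.35. The co-receptors Nrp1 (0.75) and Lrp1 (0.51), the PDGF-binding matrix protein Sparc (0.43) and the proteoglycan Bgn (0.85) rose, as did Pdgfrl, a receptor-like gene (0.68, adjusted p = 0.0475). The list mean, relative to sham, was 0.13 in denervated replicate 2 and ranged from 0.42 to 0.73 in the remaining denervated arrays. Without that array 9 of the 10 genes were called higher.

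Of 37 measured signalling proteins downstream of the receptors, 7 rose, 6 fell and 24 were not called, with a median change of 0.06. By the same rule 11.9% of all genes were called higher and 16.9% lower. The Src family kinase Fyn (0.99 ± 0.16), the adaptor Grb10 (0.81 ± 0.13), the exchange factor Vav3 (0.79) and the adaptor Shc1 (0.66 ± 0.08) rose most. Vav2 (-0.37) and the adaptor Nck2 (-0.37) fell most. The phosphatase Ptpn11 (-0.27) and the kinase subunit Pik3ca (-0.26) fell too. Without denervated replicate 2, 9 genes rose and 9 fell, in a fit that also called more of all genes in both directions.

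**Figure D2:**
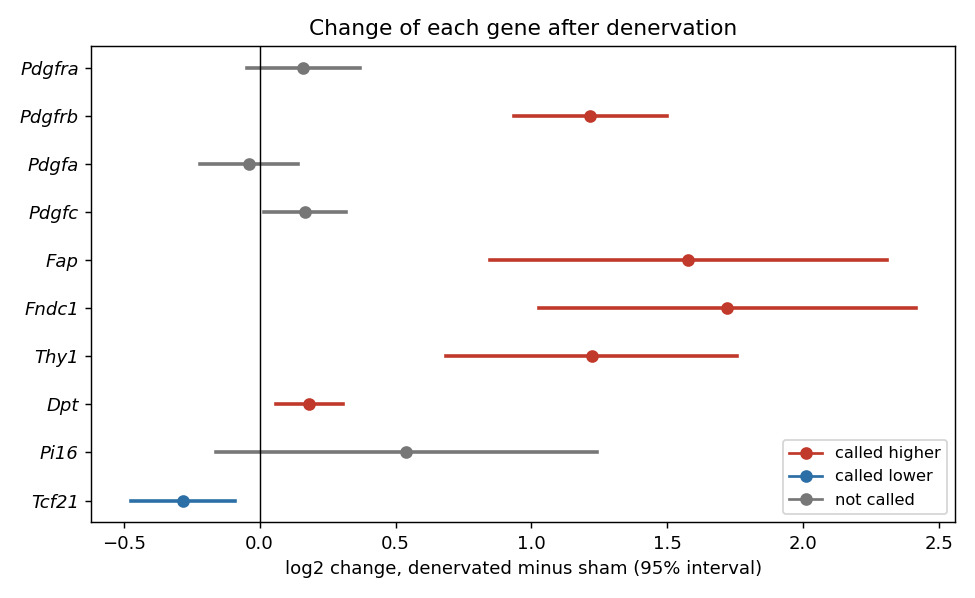
Log2 change of each gene, denervated minus sham, with its 95% interval from the limma fit (n = 6 per group). Red marks genes called higher, blue the gene called lower and grey those not called. Fndc1 (1.72), Fap (1.58), Thy1 (1.22) and Pdgfrb (1.22) lie apart from the others.

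Promoter sequences of Fap, Fndc1 and Pdgfra are printed here, since the first 2 genes were the largest rises of the group and Pdgfra, which shares their use as a fibroblast marker, did not pass the test. They come from RefSeq (build GRCr8), where 8 of the 10 genes matched, and run from 250 bases before to 50 bases after the start of the gene, 5′ to 3′ on the gene's strand. Capitals mark matches on either strand to the E-box CANNTG, bound by basic helix-loop-helix factors such as Tcf21, and to the GC box GGGCGG. They also mark matches to the TATA box TATAAA and to TGANTCA, a loose form of the AP-1 site that allows any middle base. No 2 of these matches overlap in the windows shown.
Fap, chr3:67616042-67616341, minus strand: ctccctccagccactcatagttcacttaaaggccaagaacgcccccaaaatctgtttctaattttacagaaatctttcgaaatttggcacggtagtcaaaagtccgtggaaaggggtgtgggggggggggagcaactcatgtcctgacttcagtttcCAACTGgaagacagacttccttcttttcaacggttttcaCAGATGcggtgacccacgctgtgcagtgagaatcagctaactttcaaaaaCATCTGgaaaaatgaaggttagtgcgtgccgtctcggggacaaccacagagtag
Fndc1, chr1:49686606-49686905, plus strand: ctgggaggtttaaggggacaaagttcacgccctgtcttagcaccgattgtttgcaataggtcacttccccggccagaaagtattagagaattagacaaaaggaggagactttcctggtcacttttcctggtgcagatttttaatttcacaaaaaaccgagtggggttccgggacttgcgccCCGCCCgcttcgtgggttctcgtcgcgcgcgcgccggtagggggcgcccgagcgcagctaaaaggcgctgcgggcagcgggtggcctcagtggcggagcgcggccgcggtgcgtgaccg
Pdgfra, chr14:33408467-33408766, minus strand: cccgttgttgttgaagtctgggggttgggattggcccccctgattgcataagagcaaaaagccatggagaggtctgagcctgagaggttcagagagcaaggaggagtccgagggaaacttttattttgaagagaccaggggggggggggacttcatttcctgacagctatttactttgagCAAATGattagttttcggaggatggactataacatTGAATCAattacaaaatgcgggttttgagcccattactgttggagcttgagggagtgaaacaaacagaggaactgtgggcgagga

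The Fap window holds 3 E-boxes and none of the other motifs. That of Fndc1, the first of 2 starts listed, holds 1 GC box and no E-box. That of Pdgfra holds 1 E-box and 1 match to the loose AP-1 pattern, with A as its middle base. Over 27457 promoter windows of that length, 71.6% hold an E-box, 34.9% a GC box, 7.33% the loose AP-1 pattern and 14.3% a TATA box. The letters GC make up 48.0% of the Fap window, 59.7% of the Fndc1 window and 48.0% of the Pdgfra window, against a median of 52.3% over all windows.

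Fap and Fndc1, both genes of activated fibroblasts, rose most of the 10. Fndc1, a secreted protein with fibronectin type III repeats, lay at 9.34, 10.76 and 11.35 in denervated bladders (lowest, median and highest), against 8.29, 8.80 and 8.91 in sham bladders. The groups did not overlap, although denervated replicates 2 (9.39) and 6 (9.34) were much nearer to the sham values than the other 4. Its mean was 10.45 ± 0.87 in denervated and 8.73 ± 0.23 in sham arrays (SD, n = 6 each), a rise of 1.72 ± 0.32 (SE) or 3.30-fold (adjusted p = 0.00170). Only 0.908% of genes had a larger absolute change.

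Fap, a cell-surface serine protease that appears on fibroblasts in wounds, fibrosis and tumours, lay at 5.86, 7.45 and 8.00 in denervated bladders and at 5.18, 5.68 and 6.19 in sham bladders. Denervated replicate 2 lay within the sham range and the other 5 lay above it. The rise was 1.58 ± 0.34 (SE, n = 6 per group) or 2.98-fold (adjusted p = 0.00380), and 1.84 without denervated replicate 2. Every sham value of Fap was below the median gene of its array, and so were 2 of the 6 denervated values. Its level over background there is unknown, so the size of its rise is uncertain.

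The rises of Fap and Fndc1 could not be told apart, with a difference of -0.14 ± 0.24 between them (SE, exact permutation p = 0.552, and 0.552 adjusted). That of Fap exceeded the change of Pdgfra by 1.42 ± 0.34 within arrays (SE, exact permutation p = 0.00433, and 0.0108 adjusted). The difference Fap minus Pdgfra was above all sham arrays in 5 of 6 denervated arrays and, relative to the sham mean, above 0 in all 6, lowest in replicate 2 (0.18).

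**Figure D3:**
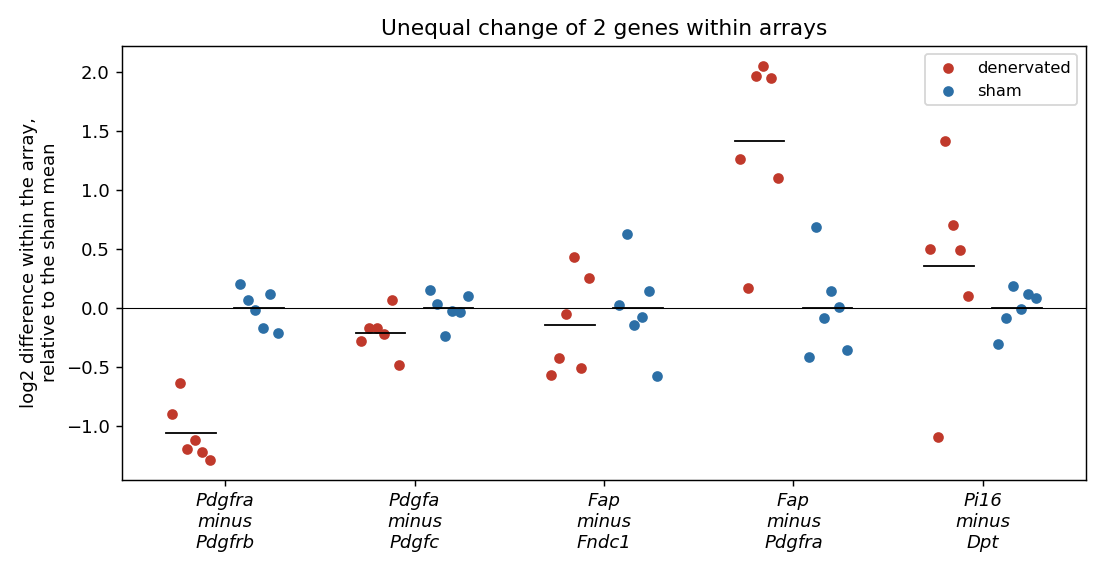
Log2 difference between 2 genes within each array, relative to its mean over the sham arrays, for the 5 pairs compared. Red points are denervated arrays, blue points sham arrays and black bars group means. Pdgfra minus Pdgfrb lies between -1.28 and -0.63 in denervated arrays and between -0.21 and 0.21 in sham arrays.

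Of the surface and matrix markers, Thy1 and Dpt rose and Pi16 did not pass the test. Thy1 is a glycolipid-anchored surface protein of fibroblasts, neurons and some T cells. It lay at 9.26, 10.42 and 11.00 in denervated bladders (lowest, median and highest) and at 8.83, 8.90 and 9.35 in sham bladders. Only denervated replicate 2 lay within the sham range. It rose by 1.22 ± 0.25 (SE, n = 6 per group) or 2.33-fold (adjusted p = 0.00276), and by 1.42 without denervated replicate 2. T cell genes were higher too, with 8 of 10 measured called higher and 0 lower. Their list mean relative to sham ranged from 0.29 to 1.18 in denervated arrays and from -0.11 to 0.06 in sham arrays. In denervated replicate 2, where Thy1 was lowest, the T cell list mean was 0.42, against a median of 0.56 over the 6 denervated arrays. Cd8b rose by 1.30 ± 0.25, Cd8a by 1.15, Cd2 by 1.13 and Cd4, which macrophages of the rat also carry, by 0.76. Of the T cell receptor complex, Cd3e rose by 0.48, Cd247 by 0.41 and Cd3d by 0.25. Cd3g stood at -0.19 (adjusted p = 0.488). All 4, and also Cd8b, Cd8a and Cd2, were below the median gene in every sham array, so the sizes of their changes are uncertain. The part of T cells in the Thy1 result was not tested.

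Dpt, dermatopontin, a small matrix protein that binds decorin and is made by fibroblasts throughout the body, was bright. It lay at 12.30, 12.49 and 12.58 in denervated bladders and at 12.22, 12.28 and 12.30 in sham bladders. The groups did not overlap, but denervated replicate 6, the lowest, was above the highest sham value by less than 0.01. The rise was 0.18 ± 0.06 (SE, n = 6 per group) or 1.14-fold (adjusted p = 0.0292). The call was lost without denervated replicate 1, 3, 4 or 5 or sham replicate 2, 4, 5 or 6, with adjusted p of 0.0505 to 0.0644.

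Pi16, a peptidase inhibitor domain protein of adventitial fibroblasts, had the largest SD of the 10 genes in denervated arrays. It lay at 8.16, 9.93 and 10.77 in denervated bladders and at 8.86, 9.17 and 9.36 in sham bladders. Denervated replicate 2 was below every sham value, replicate 6 was within the sham range and the other 4 were above it. The SD was 0.89 in denervated and 0.17 in sham arrays, a ratio of 5.11. The difference of 0.54 ± 0.32 did not pass the test (adjusted p = 0.245), but without denervated replicate 2 it was 0.85 (adjusted p = 0.00543) and without denervated replicate 3 it was 0.32 (adjusted p = 0.460). Pi16 minus Dpt was higher in denervated arrays by 0.36 ± 0.35 (SE, exact permutation p = 0.353, and 0.441 adjusted), and by 0.65 without denervated replicate 2 (adjusted exact p = 0.0108) and 0.14 without denervated replicate 3.

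Tcf21, a transcription factor that specifies fibroblasts in developing organs and marks resident fibroblasts, went the other way. It lay at 8.08, 8.14 and 8.45 in denervated bladders (lowest, median and highest), against 8.33, 8.46 and 8.78 in sham bladders. In 5 of 6 denervated arrays it was below the sham range, and replicate 1 was within it. The fall was -0.28 ± 0.09 (SE, n = 6 per group, adjusted p = 0.0304), a fall of 1.22-fold. The call was lost without denervated replicate 3, 5 or 6 or sham replicate 1, 3 or 5, with adjusted p of 0.0558 to 0.0680.

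Of 25 other fibroblast transcription factors measured, 7 rose, 2 fell and 16 were not called, with a median change of 0.19. Among all genes 11.9% were called higher and 16.9% lower. Prrx1, a mesenchymal homeobox factor, rose by 1.03 ± 0.17, Wt1, a factor of mesothelial and stromal cells, by 0.87 ± 0.22, and the homeobox gene Meox1 by 0.52 ± 0.12. Meox1 was below the median gene in every sham array, so the size of its rise is uncertain. Nr2f1, a nuclear receptor, fell by 0.51. Tcf12, which pairs with Tcf21 on DNA, stood at -0.05 (adjusted p = 0.580). Without denervated replicate 2, 12 rose. Without denervated replicate 5 or sham replicate 2 or 6, 1 fell.

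The denervated arrays differed among themselves more than the sham arrays did. Of the 10 genes, 8 had a larger SD in denervated arrays, as did 74.7% of all genes. For 7 of the 10, Pdgfra, Pdgfrb, Fap, Fndc1, Thy1, Dpt and Pi16, replicates 2 and 6 gave the 2 lowest denervated values. That was so for 11.2% of all genes, and the pattern was noticed after the values were seen. Denervated replicates 1 to 6, in order, had 8, 3, 9, 7, 8 and 5 of the 10 genes above the sham range. Below it they had 0, 2, 1, 2, 1 and 3. The share of all genes outside the sham range was not computed for each array, so how unusual these counts are is unknown.

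**Figure D4:**
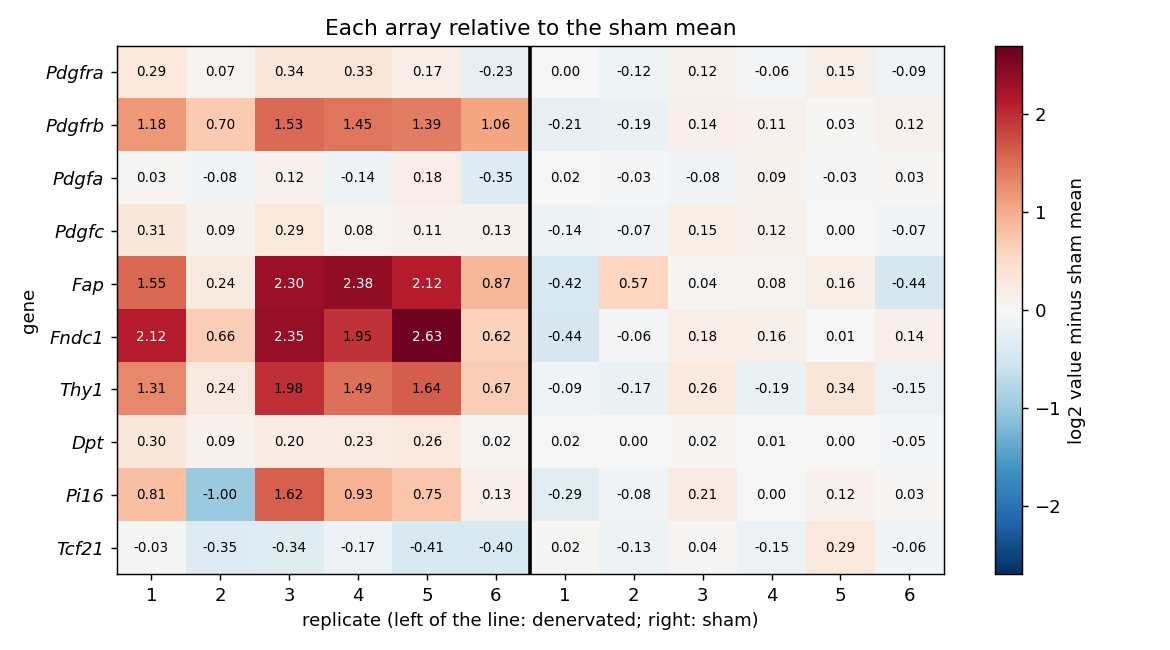
Log2 value of each gene on each array minus its mean over the sham arrays, with denervated replicates 1 to 6 left of the line and sham replicates 1 to 6 right of it. Fap, Fndc1 and Thy1 are lower in denervated replicates 2 and 6 than in the other 4 denervated arrays.

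Genes whose profiles lay nearest to the 3 largest rises were found by the root mean square difference over the 12 arrays, each gene taken relative to its sham mean. The fit of these genes to the group difference is part of that measure and is no further evidence. Nearest to Fndc1 were Tgfb3, a transforming growth factor (0.22), the collagen gene Col12a1 (0.22) and C1qtnf6 (0.27). Those nearest to Fap were Sfrp1, a secreted Wnt antagonist (0.31), the matrix protein gene Hmcn1 (0.33) and the transporter gene Abcb1b (0.33). The nearest to Thy1 were the metalloprotease gene Mmp23 (0.16), the nonmuscle myosin gene Myh10 (0.19) and Mfge8, a secreted protein that helps phagocytes bind dying cells (0.19). The changes of these 9 genes lay between 1.13 (Myh10) and 1.72 (Tgfb3).

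Markers used for resident fibroblasts and for activated fibroblasts were counted apart. Of 26 measured markers of activated fibroblasts and myofibroblasts, 21 rose, 1 fell and 4 were not called, with a median change of 1.13. Grem1, an antagonist of bone morphogenetic proteins, rose by 4.55 ± 0.49 and Cthrc1 by 3.41 ± 0.31. Lrrc15, a membrane protein of myofibroblasts, rose by 2.52 ± 0.39, and the matricellular gene Ccn4 by 2.39 ± 0.31. Grem1 and Lrrc15 were below the median gene in every sham array, and Ccn4 was above it in only 1. The sizes of the rises of Grem1, Lrrc15 and Ccn4 are therefore uncertain. Sfrp2 fell by 0.45, and Pdpn, S100a4, Cdh2 and Ddah1 were not called. Relative to sham, the list mean was 0.41 in denervated replicate 2, from 1.00 to 1.70 in the remaining denervated arrays and from -0.14 to 0.14 in sham arrays.

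Of 27 measured markers of resident fibroblasts, 11 rose, 4 fell and 12 were not called, with a median change of 0.29. For comparison, 11.9% of all genes were called higher and 16.9% lower. Penk, the enkephalin precursor, rose by 1.78 ± 0.27, the microfibril protein Mfap4 by 1.53 ± 0.16, and Ly6c, which has close copies, by 1.42 ± 0.42. Penk was above the median gene in only 2 sham arrays, so the size of its rise is uncertain. Gsn, gelsolin, fell by 1.52 ± 0.21, and the collagen receptor Ddr2 (-0.51), the chemokine-binding receptor Ackr3 (-0.51) and Efhd1 (-0.68) fell too. Cd34, which marks adventitial and interstitial fibroblasts as well as endothelium, stood at 0.00 (-0.000623, adjusted p = 0.999), and Dpp4, found with Pi16 on adventitial fibroblasts, at 0.04. The proteoglycans decorin (Dcn, -0.12) and lumican (Lum, 0.29) were not called. In denervated replicate 2 the list mean lay at -0.08, against 0.29 to 0.52 in the other 5, and 15 members rose without it.

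Pdgfrb also marks mural cells of vessels, whose other markers were mixed. Of 14 measured pericyte and mural genes, 3 rose, 5 fell and 6 were not called, with a median change of 0.03. The shares over all genes were 11.9% higher and 16.9% lower. Anpep, an aminopeptidase also found on fibroblasts and myeloid cells, rose by 1.45 ± 0.15. The other two that rose were the adhesion protein vitronectin (Vtn, 0.51, adjusted p = 0.0174) and Notch3, a receptor of mural cells (0.27, adjusted p = 0.0241). Art3 (-1.67), Angpt1, the ligand of the endothelial receptor Tie2 (-0.87), and Mcam (-0.70) fell most, and the proteoglycan Cspg4 (-0.55) and the channel subunit Abcc9 (-0.67) fell too. Rgs5 (0.19, adjusted p = 0.154) and Kcnj8 (-0.12, adjusted p = 0.381), which are often used to mark pericytes, were not called. Their list mean lay at -0.33 to 0.05 in denervated and -0.19 to 0.09 in sham arrays. Endothelial genes were higher in 5 of 8 and lower in 0, with list means of 0.25 to 0.62 in denervated and -0.04 to 0.04 in sham arrays.

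Pdgfra marks bladder interstitial cells, and of 10 measured genes used for those cells 3 rose, 2 fell and 5 were not called. Beside these counts, 11.9% of all genes were called higher and 16.9% lower. The gap junction gene Gja1 rose by 1.62 ± 0.25, Cdh11, a cadherin of fibroblasts, by 0.45 and Gucy1a1, a subunit of the nitric oxide receptor, by 0.32 (adjusted p = 0.0474). Nt5e, an ectonucleotidase, fell by 0.63 and the chloride channel gene Ano1 by 0.59. Kcnn3 and P2ry1, the potassium channel and purine receptor of PDGFRα-positive cells, stood at -0.29 (adjusted p = 0.268) and -0.11 (adjusted p = 0.593).

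Markers of other cells changed too, some upward and some downward, where 11.9% of all genes were called higher and 16.9% lower. Of 11 measured macrophage genes 10 rose and 0 fell, with list means of 0.81 to 1.49 in denervated and -0.12 to 0.13 in sham arrays. All 9 proliferation genes rose, with list means from 1.74 to 2.34 in denervated arrays apart from replicate 2 (0.27), and from -0.47 to 1.2 in sham arrays. The highest sham list mean was thus above that of denervated replicate 2, and the groups overlapped for every gene of this list. Aurkb, Plk1, Ccnb1, Cdk1 and Bub1 were below the median gene in every sham array. Mki67, Rrm2, Top2a and Ccna2 were above it in at most 2, so the sizes of these rises are uncertain. Of 11 smooth muscle genes 8 fell and 1 (Smtn) rose. Their list means were -0.83 to -0.35 in denervated arrays apart from replicate 2 (-0.09), and -0.08 to 0.11 in sham arrays. All 10 urothelial genes fell, with list means of -1.04 to -0.55 in denervated and -0.13 to 0.17 in sham arrays. Of 7 Schwann cell genes 5 fell and 0 rose. Their list means were -1.30 to -1.06 in denervated arrays apart from replicate 2 (-0.37), and -0.10 to 0.08 in sham arrays. Of 6 mast cell genes 2 rose (1 without sham replicate 4) and of 6 adipocyte genes 1 fell, and the adipocyte call, that of Fabp4, was lost without denervated replicate 2, 3 or 6 or sham replicate 1, 3, 4, 5 or 6. The part of these cell types in the changes of the 10 genes was not tested.

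**Figure D5:**
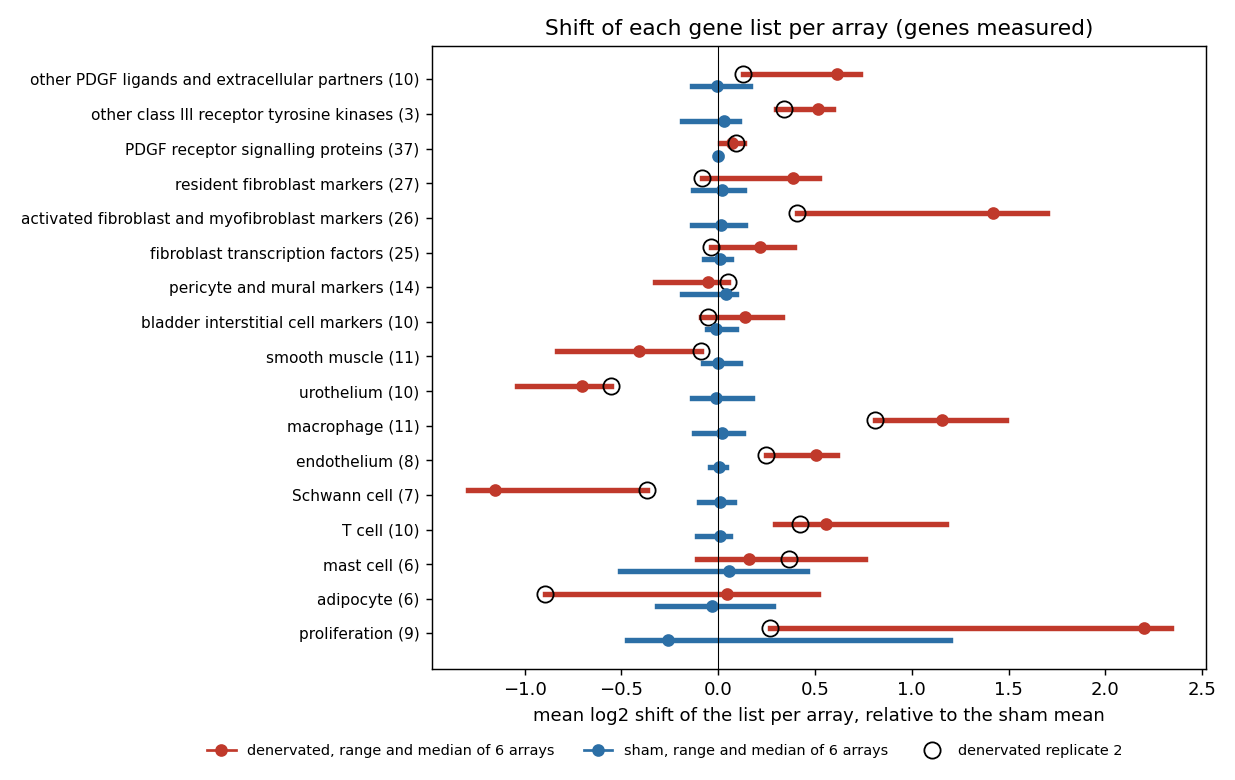
Mean log2 shift of each gene list per array, relative to the sham mean, as the range and median over the 6 denervated arrays (red) and the 6 sham arrays (blue), with denervated replicate 2 circled and the number of genes measured in brackets. Activated fibroblast markers lie at 0.41 to 1.70 in denervated arrays, and pericyte and mural markers at -0.33 to 0.05.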

How the data were processed

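The authors deposited log2 expression values for 36685 probe sets on 12 arrays. Per the submitters' processing notes these are RMA values, background-corrected and quantile-normalized, from the program Affymetrix Expression Console, version 1.4.1.46. The array's genome annotation is not given in the sources used here. Of the probe sets, 18511 carry 1 gene in the platform's table, 575 several and 17599 none, and 18394 were matched by gene identifier to RefSeq (GRCr8). Where probe sets shared a symbol, the brightest on average was kept, which left 18166 genes.

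Denervated and sham arrays were compared in R 4.3.3 with the lmFit and eBayes functions of limma 3.58.1 (two-sided, Benjamini-Hochberg over all genes, threshold 0.05), tested on simulated data first. Differences between 2 genes were compared by exact permutation of the 12 arrays. Lists are given as counts and medians, with no set test. The members and lists were chosen with earlier results of these data known. Genes named from a list are up to 4 called genes with the largest absolute change, every gene of the lists of PDGF partners and related receptors, and a few others chosen after their values were seen. Same-numbered denervated and sham arrays did not deviate together (correlations over genes of -0.11 to 0.10), so the number was not used as a pairing. No detection call came with the table, and the sources used here give no scan date or batch. Precision is limited by the number of arrays. Alternatives were other scalings, filters, variance models and tests, and leaving out each array.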

Additional observations from a re-analysis of the deposited data

Results flagged for a closer look

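A single array far from the other 5 of its group was found 4 times in 64 groups of 6 examined, and chance gives about 1 in 20. Denervated replicate 2 was that array for the mean shift of endothelial genes (0.25, against 0.49 to 0.62 in the other 5), of Schwann cell genes (-0.37, against -1.30 to -1.06) and of proliferation genes (0.27, against 1.74 to 2.34). Sham replicate 6 was that array for Dpt (12.22, against 12.28 to 12.30 in the other 5 sham arrays).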

How the results depend on the processing

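Pdgfrb, Fndc1 and Thy1 were called higher under all 23 alternatives and Fap under the 22 that kept it, since a filter at the median gene removed it. In that fit 5 of the 9 others were called higher, 1 was called lower, and Pdgfc passed (adjusted p = 0.0492). The number of the 10 genes called higher was 4 to 7 under the other alternatives, 7 with array weights, where Pdgfra (0.24) and Pi16 (0.79) passed. The number called lower was 0 with all probe sets in 1 fit, array weights, the exact rank-sum test, the test against a change of 1.2-fold or the replicate block, and 0 to 1 when 1 array was left out. Dpt lost its call with all probe sets (adjusted p = 0.0650), median centring (0.0616) and the 1.2-fold test. Pdgfa stood between -0.084 and 0.023 when 1 array was left out, and was positive without denervated replicate 6. Over all genes the 1.2-fold test called 756 higher and 496 lower, and array weights 2671 and 3857, against 2153 and 3063.

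With the replicate number as a block, 4 of the 10 genes were called higher and 0 lower. Tcf21 (adjusted p = 0.0674) and Dpt (0.0683) lost their calls. The blocked differences of Pdgfra from Pdgfrb (-1.06) and of Fap from Pdgfra (1.42) had an adjusted exact p of 0.156. Sign flips over 6 pairs give few values. For Pdgfra minus Pdgfrb all 6 pairs went the same way, so no result could have given it a smaller p before adjustment. The loss of that call therefore tells little. Of the 6 denervated arrays 1 resembled its own number best. When 1 array was left out, Pdgfa minus Pdgfc ranged from -0.26 to -0.15 and Pi16 minus Dpt from 0.14 to 0.65.

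Of 782 counts of list genes under the alternatives, 725 were within 1.5 times the reported count. The 57 others came from several settings. The test against a change of 1.2-fold called higher 2 resident fibroblast markers, 1 fibroblast transcription factor, 4 PDGF partners and 3 signalling proteins, and called lower 2 resident markers and 3 pericyte markers. With the exact rank-sum test 4 resident markers and 5 PDGF partners were higher, and 5 smooth muscle genes lower. Array weights called 11 transcription factors higher and 10 signalling proteins lower, and the block called 3 signalling proteins lower. The table has no measure of background, so changes of dim genes such as Fap have an uncertain size.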
